A study of Mus musculus with 6 samples.

Results

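The ADAMTS and MMP proteases and their TIMP inhibitors were described in the epithelial lining of the early mouse gonad, the gonadal primordium, with and without Emx2. All probe sets whose platform annotation gives 1 gene symbol made of Adamts, Adamtsl, Mmp or Timp and a number were taken, which gave 42 of the 18194 genes so annotated on the array, read by 78 probe sets. Of these, 45 probe sets of 25 genes were bright enough to be tested and 33 were not. At least 1 probe set that passed the test was found for 8 genes: Adamts5, Adamts9, Adamts12, Adamts20, Mmp14 and Mmp16 were higher in the Emx2 knockout, and Adamts18 and Timp3 were lower. In all 12 of the 45 probe sets passed (26.7%), against 4.68% of all tested probe sets. By the brightest probe set of each gene 6 of 25 passed (24%), against 5.41% of all genes, and Adamts5 and Mmp16 were not among them.

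The tissue came from fetuses at E10.5, either wild-type (+/+) or Emx2 KO (−/−), with 3 pools of each genotype and 3 fetuses in each pool. Frozen sections were stained with hematoxylin, GATA4 protein was stained on some of them to find the primordium, and its epithelium was cut out with a laser. The sources used here give neither the strain and litters nor the part of Emx2 removed in the mutant. With 3 pools per group, p-values rest on the spread between these pools, moderated in the test by the spread of other probe sets of like signal. In such bulk material, fewer cells of a type and less RNA per cell cannot be told apart.

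Both protease families are secreted or membrane-bound zinc enzymes that cut proteins of the extracellular matrix. MMPs, the matrix metalloproteinases, together degrade collagens, laminins, fibronectin and proteoglycans, and most are made as inactive precursors that another protease must cut. ADAMTS enzymes carry a disintegrin-like region and thrombospondin repeats that tie them to the matrix, and several of them cut the large hyaluronan-binding proteoglycans aggrecan and versican. ADAMTS-like proteins share the repeats but lack the protease domain. TIMPs block the active site of these enzymes, and TIMP3, which is itself held in the matrix, inhibits ADAMTS enzymes as well as MMPs. In the nematode the ADAMTS protease GON-1, whose closest mouse relatives are Adamts9 and Adamts20, is required for the gonad to take its shape.

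The RefSeq promoter table (GRCm38.p6) held 27 of the 42 genes, among them 6 of the 8 with a probe set that passed. The 250 bases before the annotated start are shown for 4 of these, the related proteases Adamts9 and Adamts20, which were higher in the KO pools, and Adamts18 and Timp3, which were lower. They are given 5′ to 3′ along the gene, with every GGGCGG and CAGGTG, on either strand, in capitals. The windows are chr6:92943535-92943784 (minus strand), chr15:94404351-94404600 (minus), chr8:113848840-113849089 (minus) and chr10:86300162-86300411 (plus).
Adamts9: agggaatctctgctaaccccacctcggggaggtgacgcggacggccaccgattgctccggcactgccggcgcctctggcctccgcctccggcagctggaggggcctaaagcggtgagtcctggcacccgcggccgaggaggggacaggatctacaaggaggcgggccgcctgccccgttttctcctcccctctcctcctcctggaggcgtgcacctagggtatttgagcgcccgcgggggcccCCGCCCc
Adamts20: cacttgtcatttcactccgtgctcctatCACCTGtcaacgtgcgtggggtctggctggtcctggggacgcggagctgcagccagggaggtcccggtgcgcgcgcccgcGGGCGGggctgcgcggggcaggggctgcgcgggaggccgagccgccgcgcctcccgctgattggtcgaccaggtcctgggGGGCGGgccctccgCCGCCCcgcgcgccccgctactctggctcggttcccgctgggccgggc
Adamts18: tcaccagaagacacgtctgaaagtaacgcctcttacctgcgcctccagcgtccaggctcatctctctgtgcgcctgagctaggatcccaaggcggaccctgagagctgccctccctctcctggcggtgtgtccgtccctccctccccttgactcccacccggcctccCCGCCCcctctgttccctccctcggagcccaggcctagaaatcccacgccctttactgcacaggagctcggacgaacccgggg
Timp3: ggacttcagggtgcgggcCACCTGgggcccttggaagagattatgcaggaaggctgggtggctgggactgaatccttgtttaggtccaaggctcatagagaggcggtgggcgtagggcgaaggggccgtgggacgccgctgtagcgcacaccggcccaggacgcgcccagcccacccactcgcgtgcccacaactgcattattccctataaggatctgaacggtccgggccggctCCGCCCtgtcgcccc

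The windows of the 6 genes, which also include Adamts12 and Mmp14, were searched on both strands for 5 short motifs. GGGCGG, the core of a GC box bound by Sp factors, was found in 5 of them, all but that of Adamts12, and in 32.7% of all 32851 promoter windows of this length. Adamts20 held 3 copies and Mmp14 2. CAGGTG, an E-box bound by Snail and Zeb repressors, was found in Adamts20 and Timp3, 222 and 232 bases before the start, and in 17.2% of all windows. No window held TAATTA, the core of many homeodomain sites (4.84% of all windows), TGANTCA, the AP-1 site known from many MMP promoters (6.75%), or TATAAA (12.4%). GC content was between 55.2% (Mmp14) and 76.4% (Adamts20), against a median of 52.4% over all windows. These are matches of letters in a short window, and no binding was measured here.

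Signals are intensities scaled to a common level on each array, with values under 7.99 set to that floor before log2 was taken. Probe sets among the dimmest 40% by their mean over all 6 arrays, under an intensity of 26.4, were left out of the test. Means are given ± SD over the 3 pools, a log2 change is the KO mean less the wild-type mean on the log2 scale with its standard error (SE), a fold is the same difference taken out of the log, and the threshold is an adjusted p of 0.05 in limma's test over all 27022 tested probe sets. Signals of different probe sets do not rank the abundance of their transcripts. The probe set of Emx2 did not pass (log2 change −0.05, SE 0.15, limma adjusted p = 0.916), and its place relative to the mutation is not known from the sources used here, so it does not check the labels. A probe set of Emx2os read 167, 230 and 174 (wild-type) against 44.9, 28.6 and 42.9 (KO). It passed as lower (log2 change −2.30, SE 0.24, limma adjusted p = 0.00015), and whether this reflects the mutation was not tested. Xist, the RNA of the inactive X chromosome, read 13.3 to 69.9 in wild-type and 9320.5 to 9888 in KO pools at its brightest probe set, which separates the same pools as the genotype. The sex of the pooled fetuses is not labelled, and in any difference below genotype cannot be told apart from what Xist reads. Of 12 epithelial markers of the gonadal primordium all 12 were bright enough to be tested. In KO pools 1 was higher (Krt19) and 3 were lower (Aldh1a1, Krt8 and Nr5a1), 33.3% called against 5.41% of all genes. Gata4 (log2 change 0.62, limma adjusted p = 0.0501) and Wt1 (−0.40, limma adjusted p = 0.0715) did not pass, though their groups did not overlap. Lhx9 gave 0.02 (limma adjusted p = 0.926) with overlapping groups.

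Of the 45 tested ADAMTS, MMP and TIMP probe sets, 12 passed (26.7%), 8 higher and 4 lower in KO, against 4.68% of all tested probe sets (2.75% higher and 1.93% lower). The median log2 change was 0.21 over the 45, against 0.01 over all tested probe sets, and 34 of the 45 were above 0. These are not 45 separate genes, since 12 genes had more than 1 tested probe set. By the brightest probe set of each gene 17 of 25 were above 0, with a median of 0.14 against −0.01 over all genes. When each gene was read by its brightest probe set alone, 4 of 25 were higher (Adamts9, Adamts12, Adamts20 and Mmp14) and 2 lower (Adamts18 and Timp3), 24% in all against 5.41% of 12315 genes (2.93% higher and 2.48% lower). The 3 values of each genotype did not overlap in 20 of the 45 probe sets (44.4%), against 22% of all tested probe sets. The number that passed moved with single pools: it was 5 higher and 2 lower without wild-type replicate 1 and likewise without KO replicate 2, and 5 higher and 3 lower without KO replicate 3. Without any 1 of the other pools it stayed between 6 and 7 higher and between 3 and 5 lower. By brightest probe set it was 2 genes higher and 1 lower without wild-type replicate 1, 3 and 1 without wild-type replicate 2, 2 higher with 0 lower when KO replicate 2 was left out, and 1 of each when KO replicate 3 was. With no probe sets left out for low signal 1 of the 12 passed, an Adamts9 probe set (adjusted p = 0.0364), and without an intensity trend in the variance 4 did, both of Adamts9 and 1 each of Adamts5 and Timp3.

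**Figure D1:**
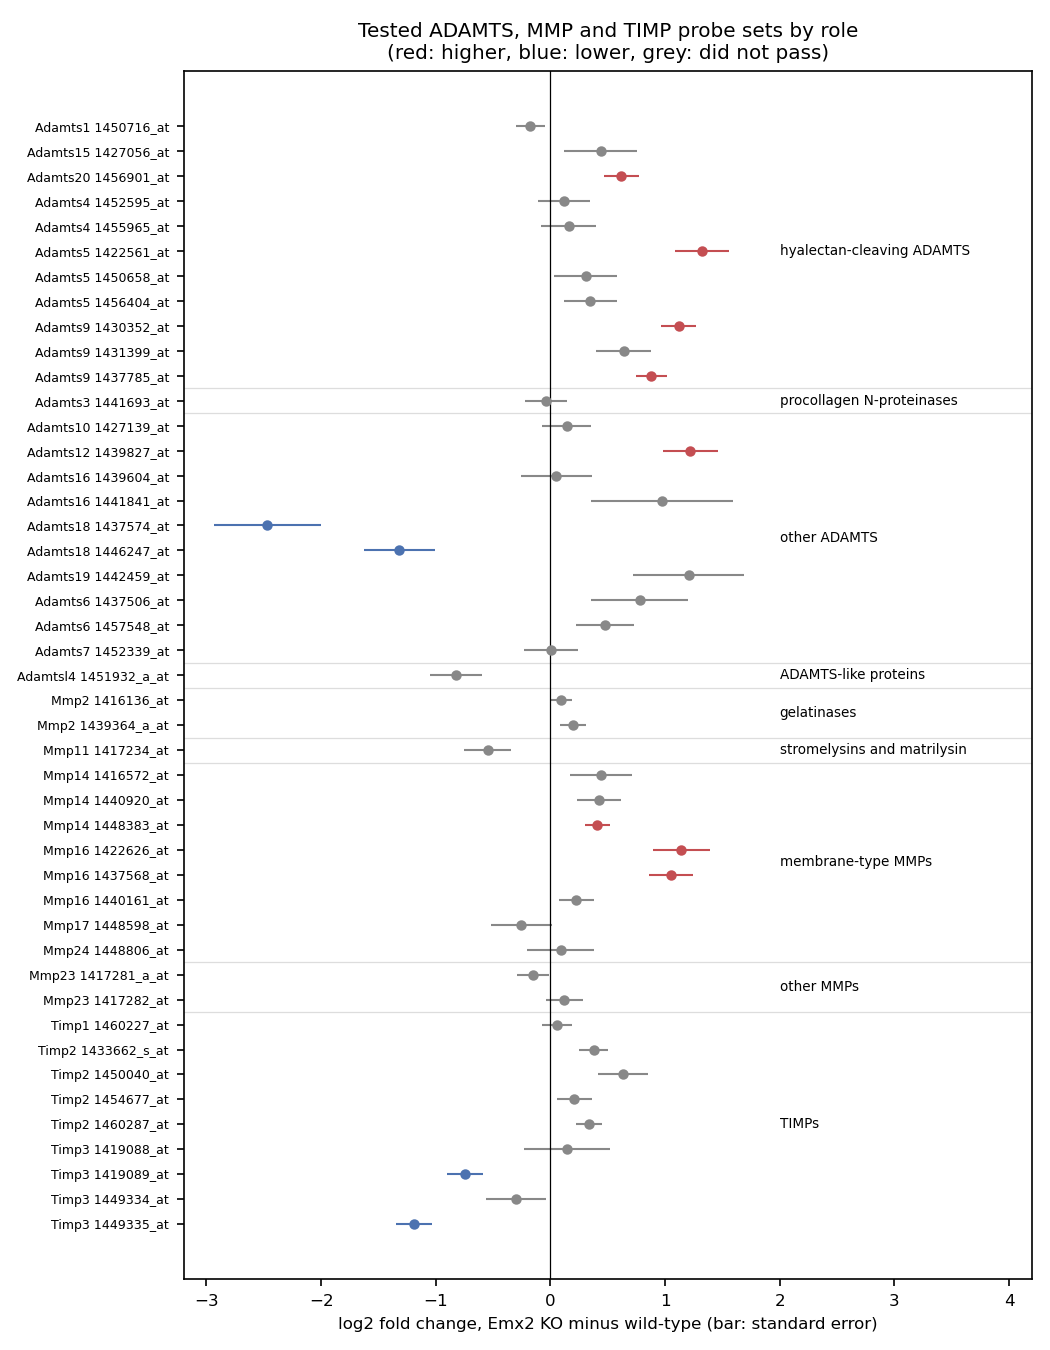
Log2 fold change (Emx2 KO minus wild-type, x axis) with its standard error for the 45 tested probe sets of ADAMTS, MMP and TIMP genes, grouped by role on the y axis; red probe sets passed as higher, blue as lower and grey ones did not pass. Both Adamts18 probe sets (−2.47 and −1.32) and the Timp3 probe sets at −1.19 and −0.74 lie to the left, and the red probe sets of Adamts5, Adamts9, Adamts12, Adamts20, Mmp14 and Mmp16 lie between 0.41 and 1.32.

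Of the 6 tested ADAMTS genes listed here as cutting versican or aggrecan, 3 had at least 1 probe set that rose and 0 had one that fell. By probe set, 4 of 11 were higher and 0 lower, against 2.75% and 1.93% of all tested probe sets. Adamts9, a widely expressed versican-cutting protease, rose in 2 of its 3 probe sets. The first (1430352_at) read 166, 154 and 172 (wild-type) against 366, 383 and 319.5 (KO). This is a 2.17-fold rise from 164 ± 9.04 to 356 ± 33.0 (n = 3 each; log2 change 1.12, SE 0.15, limma adjusted p = 0.000922), and the lowest KO pool lay well above the highest wild-type pool. The brightest (1437785_at) read 476, 522 and 408 against 893, 905 and 785, a 1.84-fold rise (log2 change 0.88, SE 0.13, limma adjusted p = 0.00172). Both passed with any 1 of the 6 pools left out. The third, dimmer probe set (1431399_at) also had groups that did not overlap, at 56.6, 50.6 and 67.5 against 112, 83.1 and 78.7, and did not pass (log2 change 0.64, SE 0.24, limma adjusted p = 0.174).

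Adamts20, which shares with Adamts9 the C-terminal domain named after GON-1 and acts in melanoblast survival and in palate and digit shaping, rose 1.53-fold. Its only probe set read 548, 439 and 518 (wild-type) against 613, 878 and 834 (KO) (log2 change 0.62, SE 0.15, limma adjusted p = 0.0379). KO replicate 1 stood nearest to the wild-type pools, above all of them. The call was close to the threshold: it was lost without wild-type replicate 1 or 2 (adjusted p = 0.0697 and 0.112) and without KO replicate 2 or 3 (0.163 and 0.154), with log2 changes between 0.52 and 0.78 over the 6 fits. It was also lost with quantile normalization (adjusted p = 0.0524) and with values as deposited (0.115).

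Adamts5, a main aggrecan-cutting enzyme that also clears versican from embryonic tissue, rose in 1 of 3 tested probe sets. That probe set (1422561_at) read 44.1, 34.6 and 34.1 (wild-type) against 94.6, 90.7 and 94.6 (KO), a 2.50-fold rise (log2 change 1.32, SE 0.24, limma adjusted p = 0.00581). The KO pools were nearly equal and all more than double the wild-type mean of 37.6 ± 5.65, and the call held with any 1 pool left out. The other tested probe sets gave 80.1 ± 10.2 and 103 ± 24.7 (1456404_at, the brightest; log2 change 0.35, SE 0.23, limma adjusted p = 0.49) and 50.2 ± 3.54 and 63.9 ± 19.4 (1450658_at; 0.31, adjusted p = 0.64), with overlapping groups. The fourth probe set had no value above the floor in any pool. Whether the probe sets read different transcripts of Adamts5 was not tested.

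The other enzymes of this kind did not pass. Adamts1, which lies beside Adamts5 in the genome and is known for its part in ovulation and urogenital development, read 1251, 1163 and 1423 (wild-type) against 1235, 950.0 and 1227 (KO) (log2 change −0.17, SE 0.13, limma adjusted p = 0.544). Both Adamts4 probe sets gave small differences (0.12 and 0.16, adjusted p = 0.854 and 0.803). Adamts15 gave 32.7 ± 10.8 and 43.4 ± 7.85 (0.44, adjusted p = 0.537), and Adamts8, its neighbour in the genome, was under the limit for testing, with no pool above 9.45.

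Adamts18 was the ADAMTS gene that fell. It encodes a protease known from the development of branching organs and the eye, and Adamts16 is its closest relative. Of its tested probe sets, the one that was brightest on the log2 scale (1446247_at) read 107, 78.3 and 61.7 (wild-type) against 37.9, 22.2 and 39.9 (KO), a 2.49-fold fall (log2 change −1.32, SE 0.31, limma adjusted p = 0.0284) with groups that did not overlap. The other (1437574_at) read 163, 85.5 and 77.4 against 31.0, 25.7 and 7.60, a 5.54-fold fall (log2 change −2.47, SE 0.47, limma adjusted p = 0.00804). Wild-type replicate 1 was the highest pool, and KO replicate 3 was at the floor, and the log2 change was −1.82 with the floor at the 40th percentile and −1.73 with a pseudocount in place of the floor.

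Both calls on Adamts18 depended on single pools. Without wild-type replicate 1 the brighter gave −1.11 (adjusted p = 0.145) and the other −2.12 (0.0565). The brighter was also lost without wild-type replicate 2 (adjusted p = 0.0679) and without KO replicate 2 (0.102). The third probe set (1444253_at) was too dim to be tested, at 20.6, 39.1 and 41.7 (wild-type) against 7.90, 9.57 and 24.1 (KO), with groups that overlapped. The pair of Adamts16 probe sets gave 0.05 and 0.97 (adjusted p = 0.957 and 0.473). In the second of these wild-type replicate 1 read 8.66 and every other pool 60.4 or more.

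Adamts12, a protease that cuts cartilage oligomeric matrix protein, rose 2.33-fold. Its tested probe set (1439827_at) read 365, 211 and 516 (wild-type) against 786, 759 and 844 (KO) (log2 change 1.22, SE 0.24, limma adjusted p = 0.0108). The wild-type pools were spread widely and the KO pools closely, with no overlap. The call was lost without KO replicate 3 (1.18, adjusted p = 0.0518), and the log2 change ran from 0.87 to 1.52 over the 6 fits with 1 pool left out. Adamts7, its closest relative, had means of 84.3 ± 14.4 (wild-type) and 85.1 ± 18.3 (KO) (log2 change 0.01, SE 0.24, limma adjusted p = 0.992).

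The other ADAMTS genes gave no call. Adamts6, which acts on fibrillin matrix, had 2 tested probe sets, both above 0 (0.48 and 0.78, adjusted p = 0.372 and 0.385). The brighter read 39.99, 41.4 and 47.5 (wild-type) against 64.9, 66.0 and 49.5 (KO), with no overlap. Adamts19, known from heart valve development, read 3.66, 20.7 and 35.5 against 57.1, 38.2 and 33.1 (log2 change 1.21, SE 0.48, limma adjusted p = 0.212), wild-type replicate 1 being at the floor and wild-type replicate 3 within the KO range. Adamts10, a further protease of fibrillin matrix, gave 0.14 (SE 0.21) and Adamts3, which trims procollagen and helps activate VEGF-C, gave −0.04 (SE 0.18).

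Of the 5 ADAMTS-like genes only Adamtsl4 was bright enough to be tested. It encodes a fibrillin-binding protein of the lens suspension and other microfibrils. It read 94.4, 80.4 and 90.1 (wild-type) against 55.6, 44.9 and 49.1 (KO), from 88.3 ± 7.18 to 49.9 ± 5.37 with no overlap, and just missed the threshold (log2 change −0.83, SE 0.23, limma adjusted p = 0.0581). It passed with quantile normalization (adjusted p = 0.0456), with the floor at the 40th percentile (0.0432) and without an intensity trend (0.0348), as it did at an adjusted p of 0.1. In 8 of the 12 processing alternatives that tested it and in all 6 fits with 1 pool left out it did not pass, with values as deposited giving 0.386.

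**Figure D2:**
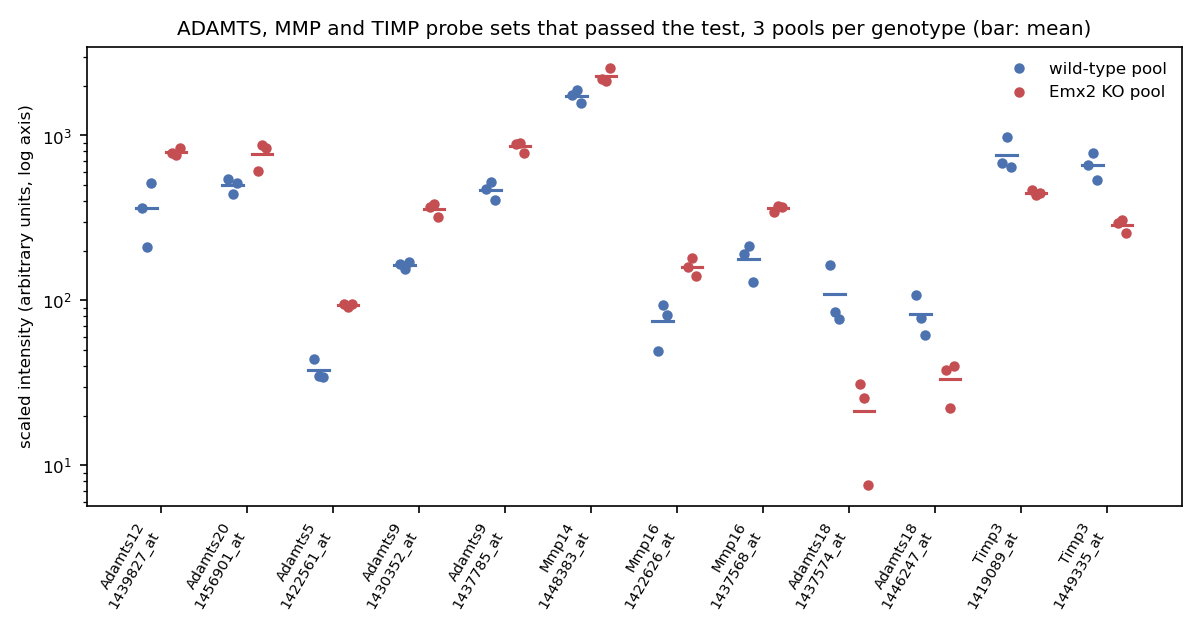
Scaled intensity (log axis, arbitrary units) of the 12 ADAMTS, MMP and TIMP probe sets that passed, with a point for each of the 3 wild-type (blue) and 3 Emx2 KO (red) pools and a bar at each mean. In none of the 12 do the pools of the genotypes overlap; the widest relative spread is in the KO pools of Adamts18 1437574_at, from 7.6 to 31.0.

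The MMPs that rose were membrane-type enzymes, which act at the cell surface. Mmp16, a membrane-anchored protease that can activate Mmp2, rose in 2 of 3 tested probe sets. One (1437568_at) read 192, 213 and 129.5 (wild-type) against 342, 374 and 369.6 (KO), a 2.07-fold rise (log2 change 1.05, SE 0.19, limma adjusted p = 0.00588) that passed with any 1 pool left out. Another (1422626_at) read 49.5, 93.3 and 81.1 against 159, 179.9 and 141 (log2 change 1.14, SE 0.25, limma adjusted p = 0.0181), and its call was lost without wild-type replicate 1 (0.87, adjusted p = 0.0589), KO replicate 1 (0.0608) or KO replicate 2 (0.0809). In both the lowest KO pool lay above the highest wild-type pool. The brightest (1440161_at) read 689.7, 492 and 686 against 740.1, 633 and 795 with overlapping groups and did not pass (log2 change 0.23, SE 0.15, limma adjusted p = 0.503), so the rise of Mmp16 rests on the dimmer probe sets.

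Mmp14, the collagen-cutting enzyme that activates Mmp2 in a complex with Timp2, rose 1.33-fold at its brightest probe set (1448383_at). The pools read 1770.1, 1882 and 1566 (wild-type) against 2206, 2153 and 2573 (KO) (log2 change 0.41, SE 0.11, limma adjusted p = 0.0465). The groups did not overlap, and the KO pool that read highest was replicate 3. The call was marginal: it passed without wild-type replicate 2 (adjusted p = 0.0443), and in the other 5 fits with 1 pool left out the adjusted p lay between 0.0735 and 0.198. It was also lost with a common median (adjusted p = 0.0977) and with values as deposited (0.306). The other probe sets had nearly the same log2 change, 0.42 (1440920_at, 94.0, 99.1 and 94.0 against 118, 125 and 144, adjusted p = 0.268) and 0.44 (1416572_at, adjusted p = 0.447), and did not pass.

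Mmp2, the gelatinase that these membrane-type enzymes activate, was bright in every pool and did not pass. One probe set (1416136_at) read 2321, 2722 and 2318 (wild-type) against 2842, 2485 and 2514 (KO) (log2 change 0.09, SE 0.10, limma adjusted p = 0.704). The other (1439364_a_at) read 2405, 2709 and 2189.9 against 3158, 2727 and 2486 (log2 change 0.20, SE 0.11, limma adjusted p = 0.408). In both the genotypes overlapped. Mmp9, the other gelatinase, was too dim to be tested, no pool exceeding 22.7 in either of its probe sets.

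Mmp11, a stromelysin that furin activates inside the cell, read 474, 323 and 254 (wild-type) against 247, 235 and 215 (KO). Every KO pool was below every wild-type pool, yet wild-type replicate 1 stood apart and the difference did not pass (log2 change −0.55, SE 0.20, limma adjusted p = 0.175). Of the alternatives run, it passed in the fit without wild-type replicate 3 (−0.75, adjusted p = 0.0374). Mmp17, a lipid-anchored membrane-type enzyme, gave −0.25 (adjusted p = 0.697), and Mmp24, a membrane-type enzyme best known from neurons, gave 0.09 (0.918). The probe sets of Mmp23, a type of MMP with an N-terminal membrane anchor, differed in sign (−0.15 and 0.12) and neither passed (adjusted p = 0.647 and 0.775).

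For 17 of the 42 genes no probe set was bright enough to be tested. They include the collagenases Mmp1a, Mmp1b, Mmp8 and Mmp13, the stromelysins Mmp3 and Mmp10, the matrilysin Mmp7, the macrophage elastase Mmp12 and the enamel protease Mmp20. These 9 genes stand next to each other in the genome, in a run of 10 neighbouring Mmp genes in the RefSeq table. Among them the highest value in any pool was 43.5 (Mmp10), and in Mmp1a, Mmp12 and Mmp13 no pool rose above the floor. The other untested genes were Mmp9, Mmp19, Adamts8, Adamtsl1, Adamtsl2, Adamtsl3, Adamtsl5 and Timp4, with a highest value of 37.2 (Adamtsl5). Over all 33 untested probe sets no pool exceeded 50.8, and 10 probe sets were at the floor in every pool. No detection calls were used, so a dim signal is no measure of absence.

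Timp3 was the inhibitor that fell. One probe set (1449335_at) read 665, 787 and 537 (wild-type) against 296, 308 and 258 (KO), a 2.29-fold fall from 663 ± 125 to 287 ± 26.3 (log2 change −1.19, SE 0.16, limma adjusted p = 0.000765) that passed with any 1 pool left out. The other bright one (1419089_at) read 683, 973 and 643 against 467, 434 and 449.6, a 1.67-fold fall (log2 change −0.74, SE 0.16, limma adjusted p = 0.015), with wild-type replicate 2 the highest pool. The KO pools were close together and all below the wild-type pools in both probe sets. The second call was lost without KO replicate 2 (−0.72, adjusted p = 0.0564), without KO replicate 3 (−0.74, 0.0556) and with values as deposited (−0.65, 0.191).

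The dimmer Timp3 probe sets did not pass. They gave 58.2 ± 9.66 and 47.2 ± 7.99 (1449334_at; −0.30, adjusted p = 0.624) and 33.9 ± 7.69 and 40.1 ± 20.6 (1419088_at; 0.15, adjusted p = 0.891), the sign of the latter turning when wild-type replicate 3 (−0.029) or KO replicate 3 (−0.24) was left out. In RefSeq's gene models Timp3 lies within Syn3, a synapsin gene. The only tested Syn3 probe set read 62.4, 66.2 and 83.1 (wild-type) against 41.3, 25.2 and 42.4 (KO) and did not pass (log2 change −0.99, SE 0.29, limma adjusted p = 0.0739). Whether that probe set and those of Timp3 share transcripts was not tested.

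Timp2, which both inhibits MMPs and links Mmp14 to the Mmp2 precursor, had 4 tested probe sets, all above 0, and none passed. The brightest (1433662_s_at) read 829, 900.3 and 682 (wild-type) against 979, 1027 and 1106 (KO) (log2 change 0.38, SE 0.13, limma adjusted p = 0.126). The next (1460287_at) read 592, 660.4 and 601 against 799, 784 and 753 (log2 change 0.34, SE 0.11, limma adjusted p = 0.132). In these and in 1450040_at (0.63, adjusted p = 0.144) every KO pool was above every wild-type pool, whereas the groups overlapped in 1454677_at (0.21, adjusted p = 0.53). At an adjusted p of 0.1 none of the 4 passed either.

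Timp1, an X-linked inhibitor of many MMPs, read 564, 694 and 528 (wild-type) against 620.0, 611 and 609.5 (KO). The KO pools were nearly identical and lay within the wild-type range (log2 change 0.05, SE 0.13, limma adjusted p = 0.884), and the sign turned without wild-type replicate 3 (−0.027). Both Timp4 probe sets were too dim to be tested, with no pool above 22.3.

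**Figure D3:**
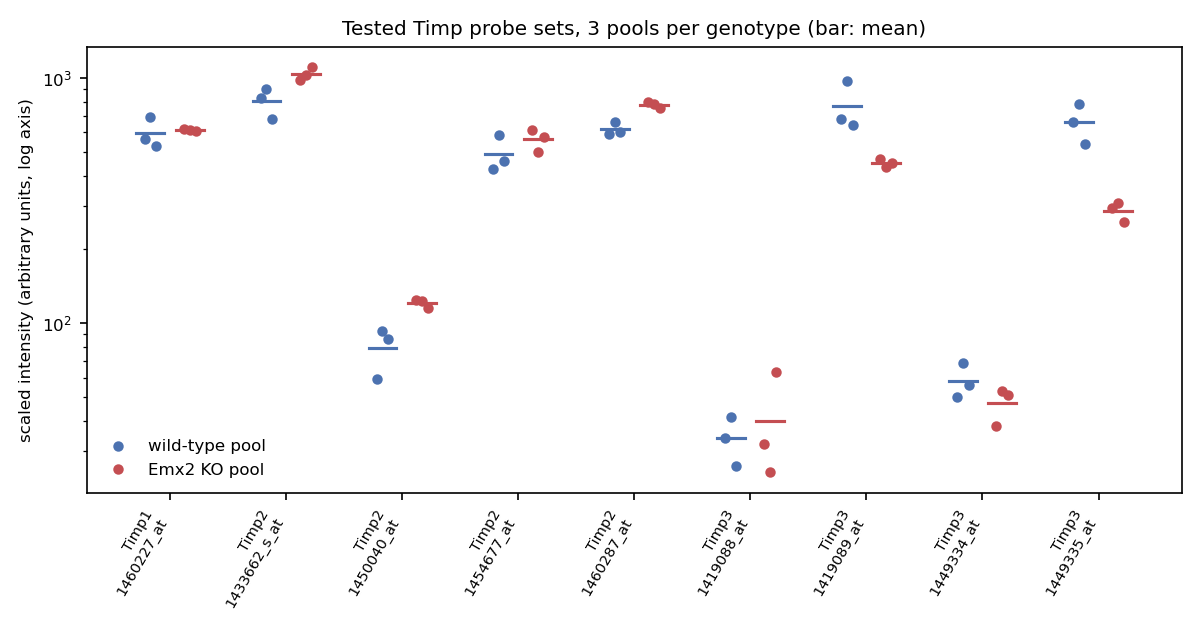
Scaled intensity (log axis, arbitrary units) of the 9 tested Timp probe sets, with a point for each of the 3 wild-type (blue) and 3 Emx2 KO (red) pools and a bar at each mean. The genotypes separate downward in 2 bright Timp3 probe sets and upward, without passing, in 3 of the 4 Timp2 probe sets; Timp1 overlaps.

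The proteins that these enzymes act on were read from a list of matrix substrates, of which 34 were tested by their brightest probe set. Of these 7 rose, 2 fell and 25 did not pass, with a median log2 change of 0.00 against −0.01 over all genes read this way and 26.5% called against 5.41%. Vcan, the versican that Adamts5, Adamts9 and Adamts20 are known to cut, read 798, 625 and 627 (wild-type) against 1379.5, 1365 and 1304 (KO), a 1.99-fold rise (log2 change 0.99, SE 0.12, limma adjusted p = 0.000453) with groups far apart. Acan, which encodes aggrecan, went down from 88.8 ± 29.2 to a KO mean of 32.4 ± 6.90 (log2 change −1.42, SE 0.31, limma adjusted p = 0.0196). Igfbp3, a carrier of insulin-like growth factors that several MMPs cut, went down from 3047 ± 167 to a KO mean of 1359.8 ± 142 (log2 change −1.17, SE 0.10, limma adjusted p = 4.89e-05). Postn, a matrix protein of mesenchyme, rose from 1201 ± 266 to 2551 ± 290.1 (adjusted p = 0.000674), and Dcn, Fn1, Fbn2, Igfbp5 and Col3a1 also rose, by 0.34 to 0.80 on the log2 scale. The calls on Vcan, Igfbp3, Postn, Dcn and Fn1 held with any 1 pool left out. That on Acan was lost when wild-type replicate 1 (−1.29, adjusted p = 0.1) or 2 (−1.23, 0.0799) or KO replicate 2 (−1.24, 0.0734) or 3 (−1.45, 0.0592) was left out. Fbn2 was lost without any 1 of wild-type replicates 1 and 2 and KO replicates 1 and 3 (adjusted p = 0.0933 to 0.132), Igfbp5 without wild-type replicate 1 or KO replicate 1 or 3 (0.0819 to 0.12), and Col3a1 without KO replicate 1 or 2 (0.0547 and 0.0663). The count of rises fell to 4 without KO replicate 1, and that of falls was 1 without wild-type replicate 1 or 2 or KO replicate 2 or 3 and 4 without wild-type replicate 3.

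Activators, further inhibitors and other partners were called at about the share of all genes. Of 45 listed genes 31 were tested, with 1 higher, 1 lower and 29 that did not pass (6.45% called against 5.41% of all genes, median log2 change −0.01). Pcsk5, a proprotein convertase of the family that activates ADAMTS and membrane-type MMP precursors, read 2832, 2629.8 and 2669 (wild-type) against 3821, 3664 and 4061 (KO) (log2 change 0.51, SE 0.08, limma adjusted p = 0.00335). Htra1, a serine protease of the matrix, read 219, 214 and 161 against 136, 91.4 and 113 (log2 change −0.81, SE 0.21, limma adjusted p = 0.0412). Each of these had groups that did not overlap. The call on Pcsk5 held with any 1 pool left out, and that on Htra1 was lost when wild-type replicate 1 (adjusted p = 0.163) or 2 (0.118) or KO replicate 2 (0.159) or 3 (0.114) was left out. The list had 2 higher genes without KO replicate 1 and 2 lower genes without wild-type replicate 3. Furin, the best known convertase, gave −0.06 (SE 0.20), Reck, a membrane-bound MMP inhibitor, gave −0.09 (SE 0.13) and Bsg, an inducer of MMPs, gave −0.04 (SE 0.14), and none of them passed. Others that did not pass differed more, in both directions, with groups that did not overlap. Among these were A2m (−0.86), Pcolce (−0.37), Cd44 (0.81) and Itgb3 (0.72), with limma adjusted p of 0.171, 0.0634, 0.148 and 0.0839.

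**Figure D4:**
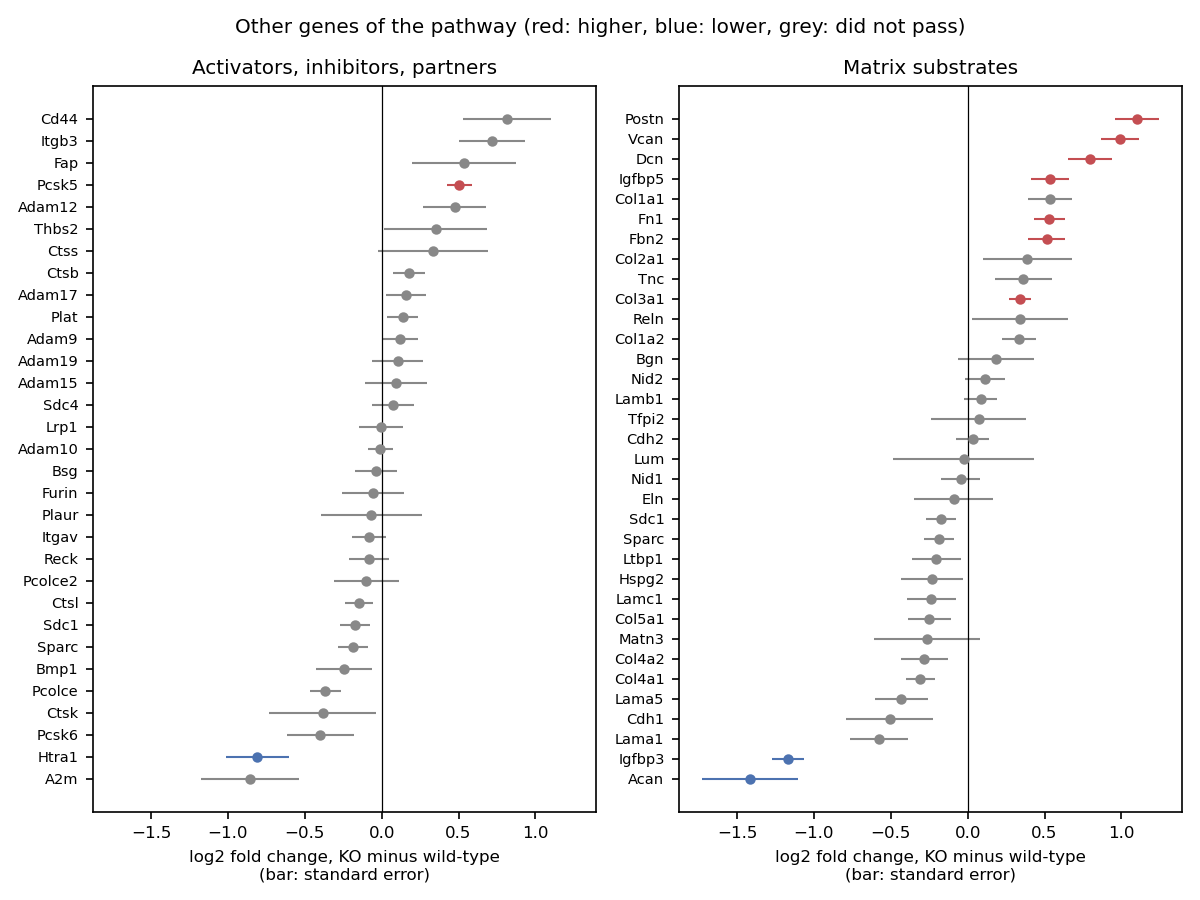
Log2 fold change (Emx2 KO minus wild-type, x axis) with its standard error for 31 tested activators, inhibitors and partners (left) and 34 tested matrix substrates (right), 1 probe set per gene; red genes passed as higher, blue as lower and grey ones did not pass. Among substrates Postn (1.10) and Vcan (0.99) stand highest and Acan (−1.42) lowest; among partners Pcsk5 and Htra1 passed.

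Markers of other cell types were read in the same way, and their lists differed in direction. Of 14 tested mesenchyme markers 8 rose and 0 fell, and their summed intensity was 15058 to 16966 in wild-type and 22064 to 23310.3 in KO pools. Of 13 tested endothelial markers 4 rose and 0 fell (sums of 1310.1 to 1826 and 2248 to 2573), Pecam1 and Tie1 being too dim to test. For macrophages 1 of 9 rose, Csf1r (455 to 641 and 715 to 856), and C1qa, C1qc, Aif1 and Mrc1 were too dim. For neurons 2 of 8 rose (872 to 1401 and 1141 to 1879), for the nephric duct 2 of 7 fell (587 to 737 and 368 to 550), and for muscle 2 of 9 rose and 2 fell (3649 to 4574 and 4599 to 5016). The 7 tested erythroid markers gave 0 calls (35779 to 37420 and 35860 to 37326). Over all these lists the 17 rises became 11 without KO replicate 1 and 10 without KO replicate 2, and the 4 falls became 2 without wild-type replicate 1, against a background of 5.41% called over all genes. The mesenchyme list shares Col1a1, Col1a2, Col3a1, Dcn, Lum and Postn with the substrates. The sums of mesenchyme, endothelium, macrophage and muscle markers were higher in every KO pool than in any wild-type pool. Those of the nephric duct and of the primordium's own epithelium (26399.5 to 29770.2 and 23699.7 to 26142) were lower in every KO pool, and those of neurons and erythroid cells overlapped. The muscle and epithelial sums separated narrowly, and the brightest genes weigh most in a sum. In muscle this was Tnni1 (wild-type mean 2360, KO mean 2631), which did not pass, while Tnnt2 and Myl7 rose and Myh6 and Myh7 fell. In the epithelium these were Lhx9 (6156 and 6262) and Podxl (5344 and 5304), and neither passed. Among macrophage markers it was Csf1r (172 and 331), the only one of them that rose. Cd68 (log2 change −0.50) and Fcgr1 (−0.51) lay lower in KO pools and the other macrophage markers lay above 0 on the log2 scale, all without passing. The part of these cell types in the differences above was not tested.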

How the data were processed

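The values the authors deposited are linear intensities, 1 per probe set on each of 6 arrays of 1 colour. Per the labels' protocols, the RNA (15 ng of each pool) was amplified over 2 rounds before biotin was attached. The submitters' processing notes name GCOS 1.2, and which algorithm and scaling it ran with the sources used here do not say. Since 2% trimmed means differed by up to 1.47 times between arrays, each array was scaled to a common one (309.2). Values under the 20th percentile (7.99) were raised to it before log2 was taken, and 64 control probe sets and the dimmest 40% were left out.

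Names come from the platform annotation, in which 34958 probe sets had 1 symbol, 932 several and 9211 none. The genotypes were compared by limma 3.58.1 under R 4.3.3 with lmFit and a trended eBayes; p-values are two-sided and adjusted by Benjamini-Hochberg over the 27022 probe sets tested. The number of arrays limits the precision, the median SE being 0.19. Genes and lists were chosen with earlier results of these data known. Named in full were genes with a call, every Timp, Mmp2 and Mmp14, and the 5 genes next by p; the promoters, motifs and genes overlapping Timp genes were picked after values were seen. The procedure was run on simulated arrays with independent noise and planted changes, which checks the code and not the calls reported here. Alternatives covered scaling, floor, filter, block, weights, trend, threshold, probe choice and each pool left out.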

Additional observations from a re-analysis of the deposited data

How the results depend on the processing

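The 32 probe sets chosen by the naming rule were refitted under each alternative that still tested them, 588 comparisons in all, of which 535 kept direction and side of the threshold, 45 lost a call, 5 gained one and 3 turned in sign. All 45 losses fell on the 12 probe sets with a call, and the 535 also counts probe sets that had no call to lose. Dimmer ones were not tested with the lowest 60% left out, the brightest of Timp2 not with probe sets ending _x_at or _s_at left out, and Adamts19 was tested in 2 of the 6 fits with a pool left out. With 1 pool left out, Timp1 ran from −0.027 (without wild-type replicate 3) to 0.17, and the dimmest Timp3 probe set from −0.24 (without KO replicate 3; −0.029 without wild-type replicate 3) to 0.44, and neither passed in any fit. The labels do not say whether pools of the same replicate number were paired. Deviations of same-numbered pools from their group means correlated with −0.07, 0.04 and −0.05, and with 3 pools per group these values cannot decide it. With the replicate block, 10 of the 12 called probe sets still passed, Adamts20 (adjusted p = 0.0608) and Mmp14 (0.0839) did not, the genes higher by brightest probe set were 2 and the partners lower 0.

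Counts that moved by over 1.5 times were as follows. With values as deposited, the genes by brightest probe set were 2 higher and 1 lower, partners 0 and 0, and substrates higher 3. With no filter, probe sets were 1 higher and 0 lower, genes 0 and 0, partners lower 0, substrates 1 and 1, and markers of other cell types 4 and 1, with 151 calls over the whole array. With the lowest 60% left out, the lower counts were 2 (probe sets), 1 (genes), 2 (partners), 1 (substrates) and 1 (markers). With array weights, partners lower were 2, and at an adjusted p of 0.1 partners were 2 and 2. Without an intensity trend, probe sets were 3 and 2, genes 1 and 1, partners 0 and 0, substrates 3 and 1, and markers 8 and 2. The cause of these losses was not tested. With each pool left out in turn, probe sets ran from 5 to 7 higher and 2 to 5 lower, genes from 1 to 3 and 0 to 3, partners from 1 to 2 and 0 to 2, substrates from 4 to 7 and 1 to 4, and markers from 10 to 15 and 2 to 5 (17 and 4 with all pools). In the main fit, probe sets whose mean over all arrays, taken on the log2 scale, lay under an intensity of about 26.4 were not tested.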
